A study of Mus musculus with 24 samples.

Results

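The comparison described here sets BRAF-V600E mutant dendritic cells that had received a BRAF-V600E inhibitor against wild-type (WT) dendritic cells that had not, in total RNA. It asks how close short inhibition brings the mutant cells to the untreated WT state, and which protein-coding genes stay different. Its members were the 3 total RNA libraries of LCH cells with inhibitor and the 3 of WT cells without inhibitor, 6 of the 24 libraries of the series. LCH (Langerhans cell histiocytosis) is the labels' name for the mutant genotype. Both groups were bone marrow-derived dendritic cells (BMDC), grown from bulk mouse marrow for 7 days in medium rich in GM-CSF. The LCH cells were given the inhibitor for 1 h beforehand, and the WT cells of this comparison were not. Both groups then received LPS for 3 h, at 100 ug per mL as the labels write it, and a cycloheximide pulse at 100 ug per mL, so no library shows cells at rest. The columns name pools A, BD and C for WT and E, F and G for LCH, and the sources used here do not give the promoter or Cre line behind the mutant allele, or the age of the mice.

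BRAF is a kinase that relays signals from RAS to MEK and ERK, and the V600E change leaves it active without RAS. Active ERK switches on fast target genes such as Egr1, Myc and Ccnd1, and with them its own brakes, the Dusp phosphatases and the Sprouty and Spred proteins. In dendritic cells LPS acts through TLR4, and ERK, NF-kB and JAK-STAT signals together set which cytokines are made. Langerhans cell histiocytosis is a disease of myeloid cells in which mutations of this pathway, often BRAF-V600E, are found.

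Promoter sequences of Lif and Cish are shown because these cytokine-linked genes illustrate different outcomes described further on, a level near WT for Lif and a level below WT for Cish. Both were matched by symbol to RefSeq promoter windows on build GRCm38.p6, from 250 bases before to 50 bases after the transcription start. Capitals mark motifs found by searching both strands, AP-1 (TGACTCA or TGAGTCA) for Lif and the STAT motif GAS (TTCNNNGAA) for Cish. The Lif window (chr11:4257318-4257617, plus strand) held 1 match and the Cish window (chr9:107296409-107296708, plus strand) held 2. Of 32851 windows of the same length, 5.2% held the AP-1 motif and 8.3% the GAS motif, and a match describes the letters only.
Lif: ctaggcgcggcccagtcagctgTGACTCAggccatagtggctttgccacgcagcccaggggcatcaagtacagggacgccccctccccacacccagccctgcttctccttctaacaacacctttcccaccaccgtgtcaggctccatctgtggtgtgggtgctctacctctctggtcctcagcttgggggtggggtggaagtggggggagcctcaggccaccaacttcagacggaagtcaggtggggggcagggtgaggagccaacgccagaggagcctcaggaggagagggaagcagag
Cish: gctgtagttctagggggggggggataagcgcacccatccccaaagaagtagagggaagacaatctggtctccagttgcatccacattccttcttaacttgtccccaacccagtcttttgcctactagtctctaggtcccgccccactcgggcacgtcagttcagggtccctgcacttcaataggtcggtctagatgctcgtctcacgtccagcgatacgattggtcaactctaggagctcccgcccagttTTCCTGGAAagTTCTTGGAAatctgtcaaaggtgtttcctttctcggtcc

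Library totals ranged from 19225995 to 20484170 counts in WT without inhibitor and from 26380809 to 39792221 in LCH with inhibitor. The LCH pool G libraries stood apart, with counts for 37388 gene models without and 38431 with inhibitor, against 16837 to 18406 in the other total RNA libraries. Pool G also had 3.00% (without inhibitor) and 1.26% (with inhibitor) of its counts outside the genes tested. Named genes whose call in LCH with inhibitor against untreated WT changes without it are marked where they appear. Calls of single genes in the other comparisons are not marked in this way. Those of the inhibitor effect in LCH fell from 98 to 33 genes without pool G. WT pool A had 1204 counts of the Y-linked Ddx3y and 0 of Xist, whereas the other WT libraries without inhibitor and the LCH libraries had 0 to 4 counts of Ddx3y and 4157 or more of Xist. The mRNAs of the mitochondrial genome made up 6.22% to 9.70% of counts in WT and 1.75% to 2.64% in LCH with inhibitor. The part of these differences in the results was not tested beyond leaving out each library. Dendritic cell markers were present in both groups, with a summed level of 1889 to 2025 CPM in WT (the CPM unit divides counts by library size after TMM scaling) and 1888 to 2153 CPM in LCH with inhibitor.

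LCH cells with inhibitor remained different from untreated WT cells at many genes. Of 12110 protein-coding genes tested, 3267 (27.0%) passed an adjusted p of 0.05, 1570 higher (13.0%) and 1697 lower (14.0%) in LCH with inhibitor. For LCH without inhibitor against the same WT libraries the count was 3794 (31.3%), 1867 higher (15.4%) and 1927 lower (15.9%). The inhibitor itself, LCH with against LCH without, gave 98 calls (0.809%), 19 higher (0.157%) and 79 lower (0.652%), and 2483 when each pool was kept as a block, 1188 higher and 1295 lower. The same inhibitor in WT cells gave 75 calls (0.619%), 71 higher (0.586%) and 4 lower (0.0330%), and 2496 with the pool block, 1200 higher and 1296 lower. These comparisons share libraries, so their counts are set side by side and were not tested against each other. In bulk RNA, fewer cells of a type and less RNA per cell cannot be told apart.

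Most genes lay close to WT in size. The 95% interval of the log2 fold change lay wholly between -1 and 1 for 7992 genes (66.0%). Genes that passed the test and differed by more than 1 on the log2 scale numbered 975 (8.05%) with inhibitor, 533 higher and 442 lower, and 1247 (10.3%) without. Differences beyond 3 remained at 93 called genes, against 128 without inhibitor. The median size of the log2 fold change against WT was 0.31 with inhibitor and 0.34 without, and that of the inhibitor effect in LCH was 0.15. The libraries of the groups did not overlap at 5205 genes (43.0%). Leaving out a single library lowered the 3267 calls to 1705 without WT pool C, 1942 without WT pool BD, 1968 without LCH pool E and 2112 without LCH pool F. P-values measure the spread between libraries within groups, from a fit of all total RNA libraries and not only those compared. Pool was not a term of that fit, so libraries of the same pool with and without inhibitor were treated as independent. With the compared groups alone in the fit, 2510 genes were called.

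Braf itself, the mutated gene, was measured at 34.4, 36.5 and 33.6 CPM in the WT libraries A, BD and C and at 34.8, 29.6 and 25.1 CPM in LCH with inhibitor in E, F and G. The groups overlapped, and the log2 fold change was -0.23 (SE 0.14, adjusted p = 0.258). A change of codon is not a change of level, so these counts do not check the genotype. On the deposited rlog values the same difference was -0.84 and passed the test.

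The kinases and adaptors of the pathway stayed within a narrow range of WT. Of 19 RAS-RAF-MEK-ERK components, 6 were lower and 1 was higher, against 27.0% of all genes called, the median log2 fold change was -0.23 and all 19 intervals lay within 1 of 0. Mapk3, which encodes ERK1, was at 133, 155 and 152 CPM in WT and 87.7, 96.0 and 82.3 CPM in LCH with inhibitor. All 3 LCH libraries lay below all WT libraries, a fall of 0.73 on the log2 scale (SE 0.11, adjusted p = 0.000956). Shoc2, a scaffold that helps RAF activation, was lower as well (-0.44, SE 0.08, adjusted p = 0.00253), and both were also lower in untreated LCH (-0.64 for Mapk3 and -0.34 for Shoc2). Without WT pool C the lower members numbered 3, and a higher member was called in 1 of the 6 fits with a library left out, that without LCH pool F.

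Some ERK brakes lay near WT after inhibition and others above it. Of 11 ERK feedback genes 3 were higher and 0 lower with inhibitor, near the 27.0% called over all genes, with a median of 0.33 on the log2 scale, and 6 of 11 intervals lay within 1 of 0. Without inhibitor 5 were higher, with a median of 1.14. The median over all genes tested was 0.01 in both comparisons. Dusp6, the phosphatase that dephosphorylates ERK in the cytoplasm, was at 5.21, 7.37 and 9.25 CPM in WT, 40.8, 55.1 and 69.5 CPM in LCH without inhibitor and 9.25, 10.3 and 10.8 CPM with it. The inhibitor libraries lay at or just above the top of the WT range, and the untreated LCH libraries lay far above both. The log2 fold change from WT was 0.47 with a 95% interval of -0.04 to 0.99 (adjusted p = 0.156), against 2.92 before inhibition, and the inhibitor lowered Dusp6 by 2.45 (adjusted p = 0.00117). Without the low-count filter the residual Dusp6 difference passed the test. Errfi1, an inhibitor of the EGF receptor that ERK induces, was 0.33 from WT (interval -0.40 to 1.06, adjusted p = 0.498) after 2.05 before inhibition. The 3 called members were Spry4 (2.01, adjusted p = 0.0203), Dusp5 (1.55, adjusted p = 0.0495) and Spred3 (1.26, adjusted p = 0.0387). Of these, 0 were called without both pool G libraries, without WT pool C or without LCH pool G (1 without WT BD, LCH E or LCH F).

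ERK target genes lay near, above or below WT after inhibition. Among 14 targets, 4 were higher and 2 lower with inhibitor (27.0% called over all genes), with a median of 0.38, where 10 were higher and 1 lower without it, with a median of 1.78. Without pool G the counts were 3 and 0, and without WT BD, WT C or LCH F they were 2 and 0. Myc, the growth transcription factor, was at 4.62, 6.50 and 5.29 CPM in WT, 28.8, 20.7 and 15.1 CPM in LCH without inhibitor and 8.06, 6.09 and 5.42 CPM with it. The inhibitor libraries overlapped the WT libraries, with a log2 fold change of 0.26 (interval -0.29 to 0.81, adjusted p = 0.485) after a fall of 1.72 under inhibitor (adjusted p = 0.0085). Ier3, an early gene that modulates survival, went from 1.10 to -0.31 against WT (adjusted p = 0.337). Egr3, an early transcription factor, went from 1.71 to 0.28 (adjusted p = 0.347).

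Ccnd1 and Egr1 came down but stayed above WT. Ccnd1, the cyclin D1 that drives entry into the cell cycle, was at 14.6, 14.1 and 8.99 CPM in WT, 161, 139 and 146 CPM in LCH without inhibitor and 37.6, 40.7 and 39.6 CPM with it. The 3 groups were separate, and the inhibitor libraries lay between the other groups. The inhibitor lowered Ccnd1 by 1.92 on the log2 scale (adjusted p = 0.00174) and left it 1.65 above WT (SE 0.21, adjusted p = 0.000405). Egr1, an early transcription factor, was at 10.4, 6.85 and 8.94 CPM, 68.6, 108 and 106 CPM and 21.7, 38.4 and 23.7 CPM in the same order of groups. Its libraries were also separate, 1.68 above WT (SE 0.26, adjusted p = 0.0013) after 3.43 before inhibition. Phlda1 and the immediate early gene Ier2 showed smaller residues of 0.62 (adjusted p = 0.0282) and 0.69 (adjusted p = 0.0301). Those residues were not stable, since the Phlda1 call was lost in 5 of 6 fits with a library left out (WT A, BD or C, LCH E or F) and that of Ier2 in 4 (WT BD or C, LCH E or F), with adjusted p up to 0.132 and 0.142.

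Other early genes stayed nearer to the untreated LCH level. Btg2, an antiproliferative early gene, was at 65.7, 33.6 and 46.4 CPM in WT, 189, 163 and 134 CPM in LCH without inhibitor and 154, 146 and 98.4 CPM with it, 1.45 above WT (SE 0.27, adjusted p = 0.00347). The inhibitor libraries lay above every WT library, and the inhibitor effect was -0.29 (adjusted p = 0.811, or 0.00241 with the pool block). Nr4a2, a nuclear receptor, was 1.23 above WT (SE 0.20, adjusted p = 0.00165) with inhibitor and 0.81 without. Over 18 immediate early genes 4 were higher and 1 lower with inhibitor, a share near the 27.0% over all genes, with a median of 0.16, and 6 and 1 without. The higher calls fell to 2 without WT pool BD, WT pool C, LCH pool E or LCH pool F, and without pool G 5 were higher and 3 lower.

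**Figure D1:**
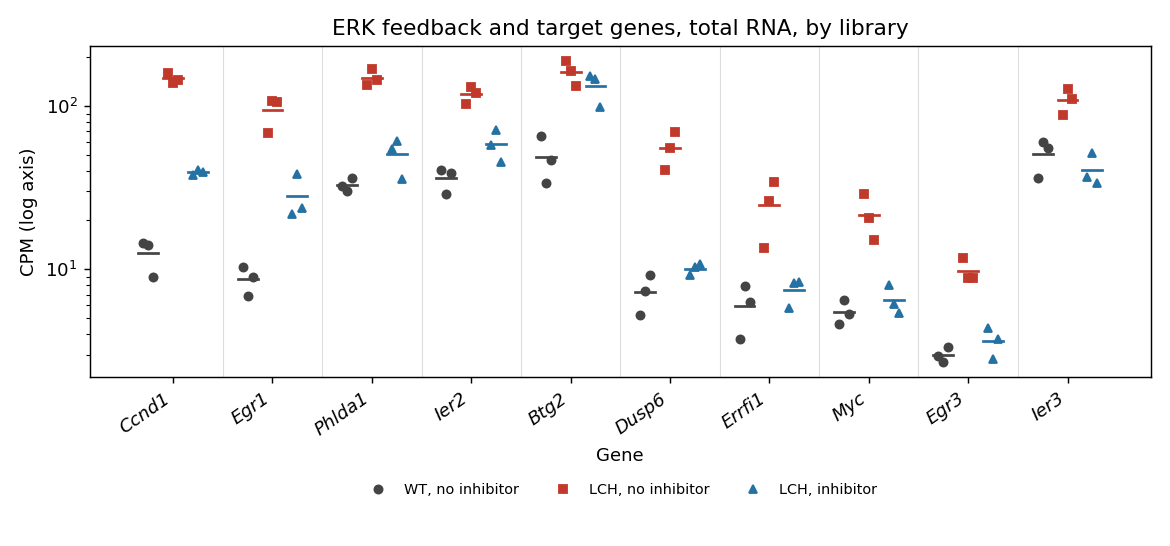
CPM on a log axis of 10 ERK feedback, target and early genes in each library, with circles for WT without inhibitor, squares for LCH without inhibitor, triangles for LCH with inhibitor and bars at the means of 3 libraries. Dusp6, Errfi1, Myc, Egr3 and Ier3 triangles lie at or near the circles, Ccnd1 and Egr1 triangles lie between the other groups, and Btg2 triangles stay near the squares.

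**Figure D2:**
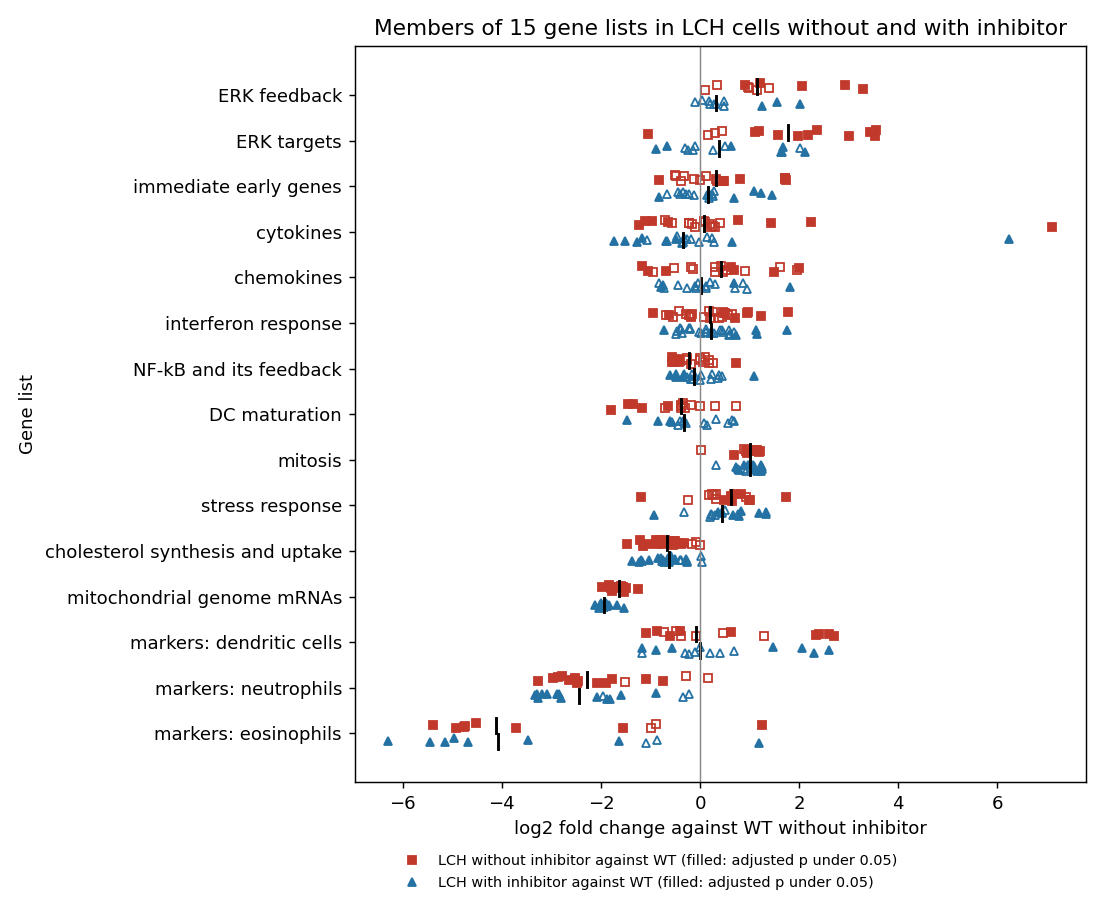
Log2 fold change against WT without inhibitor for the measured members of 15 gene lists, squares for LCH without and triangles for LCH with inhibitor, filled where the adjusted p is under 0.05, with a black bar at each median. The medians of ERK feedback (1.14 and 0.33) and ERK targets (1.78 and 0.38) lie nearer 0 with inhibitor, and those of mitosis, cholesterol synthesis, mitochondrial mRNAs and granulocyte markers lie at similar places in both.

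Cytokine genes ranged after inhibition from levels near WT to levels above or below it. Of 21 cytokine genes 2 were higher and 6 lower than WT with inhibitor (27.0% called over all genes), with a median of -0.34, and 4 were higher and 4 lower without it, with a median of 0.09. Csf3, which encodes the granulocyte growth factor G-CSF, was at 4.22, 5.01 and 7.60 CPM in WT, 32.9, 61.5 and 52.4 CPM in LCH without inhibitor and 5.44, 7.25 and 4.78 CPM with it. The inhibitor libraries fell inside the WT range, 0.05 from WT (interval -0.54 to 0.64, adjusted p = 0.908), after a fall of 3.07 under inhibitor (adjusted p = 0.000772). The sign of that residue changed when single libraries were left out.

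Lif, a cytokine of the IL-6 family whose promoter is printed above, was at 38.1, 29.0 and 32.0 CPM in WT, 121, 169.8 and 176 CPM in LCH without inhibitor and 27.4, 37.8 and 22.0 CPM with it. The inhibitor libraries E and G lay below the WT range and F inside it, at -0.19 (interval -0.62 to 0.25, adjusted p = 0.527), and the inhibitor effect was -2.42 (adjusted p = 0.000718, or 0.0515 with the pool block). Osm, oncostatin M of the same family, went from 1.44 to -0.27 against WT (adjusted p = 0.419). Fgf23, a hormone of phosphate balance named for its large fall under inhibitor (-2.02, adjusted p = 0.0125), was 0.71 from WT (interval -0.03 to 1.44, adjusted p = 0.143), after 2.73 without inhibitor. Its inhibitor libraries, at 2.50, 2.03 and 2.70 CPM, all lay above the WT libraries, at 1.69, 0.921 and 1.80 CPM.

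Csf2 and Il22 stayed above WT. Csf2, the gene of GM-CSF, was at 1.59, 2.01 and 1.39 CPM in WT, 27.2, 36.5 and 20.7 CPM in LCH without inhibitor and 5.31, 6.44 and 2.79 CPM with it. The inhibitor libraries lay above all WT libraries and below all untreated LCH libraries, 1.54 from WT (SE 0.32, adjusted p = 0.00519) after 4.08. Of 8 colony stimulating factors and receptors measured 2 were higher and 1 lower (27.0% called over all genes). The counts were 1 and 0 without WT BD, WT C, LCH E or LCH F. Il22, a cytokine that acts on epithelia, was at 0.347, 0.345 and 0.565 CPM in WT, 52.9, 60.9 and 62.7 CPM in LCH without inhibitor and 23.6, 46.4 and 26.9 CPM with it. Every LCH library lay far above WT, and the inhibitor libraries lay below the untreated ones. Il22 was 6.24 above WT with inhibitor (SE 0.39, adjusted p = 1.52e-05), and the inhibitor effect of -0.87 did not pass the test (adjusted p = 0.213).

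Several inflammatory cytokines ended below WT. Il23a, the p19 subunit of IL-23, was at 43.5, 55.4 and 48.5 CPM in WT, 32.4, 31.6 and 30.8 CPM in LCH without inhibitor and 15.5, 17.6 and 11.3 CPM with it. The groups were stepwise and separate, and the fall from WT was 1.73 on the log2 scale with inhibitor (SE 0.17, adjusted p = 9.04e-05) and 0.64 without (adjusted p = 0.0141). Il12b, the p40 subunit shared by IL-12 and IL-23, was at 3624, 2473 and 2747 CPM in WT, 1343, 1314 and 1438 CPM in LCH without inhibitor and 1036, 1091 and 972 CPM with it. All LCH libraries lay below all WT libraries, at -1.51 with inhibitor (SE 0.18, adjusted p = 0.000288) and -1.11 without (adjusted p = 0.001). The inhibitor effect on Il12b was -0.40 (adjusted p = 0.451, or 0.000265 with the pool block). Il12a fell by 1.17 (adjusted p = 0.0013), and Tnfsf15, a TNF family cytokine, by 1.27 (adjusted p = 0.000683). Both were already low without inhibitor, by 0.97 and 1.24.

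Tgfb1, a suppressive cytokine, was at 290.1, 312 and 293 CPM in WT, 364, 341 and 324 CPM in LCH without inhibitor and 214, 233 and 193 CPM with it. Untreated LCH libraries lay above WT and inhibitor libraries below it. The difference from WT was a fall of 0.48 with inhibitor (SE 0.09, adjusted p = 0.00366) and a rise of 0.20 without (adjusted p = 0.13). Il1a was lower by 0.69 with inhibitor (adjusted p = 0.0398), a call lost without WT BD, WT C or any of the LCH libraries (adjusted p up to 0.162) and without both pool G libraries (0.0896). Il18 was the other cytokine higher than WT, by 0.65 (adjusted p = 0.0416), a call lost in every fit with a library left out but that without WT A (adjusted p up to 0.16) and without both pool G libraries (0.0883).

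Tnf, the inflammatory cytokine named in the series' title, was at 2423, 3559 and 3151 CPM in WT, 2956, 3716 and 3981 CPM in LCH without inhibitor and 2135, 2557 and 2500.4 CPM with it. The WT and inhibitor libraries overlapped, with a log2 fold change of -0.34 (SE 0.19, interval -0.75 to 0.06, adjusted p = 0.193). The inhibitor effect within LCH was -0.57 (adjusted p = 0.255), and -0.56 with an adjusted p of 1.52e-05 when pools were kept as blocks.

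**Figure D3:**
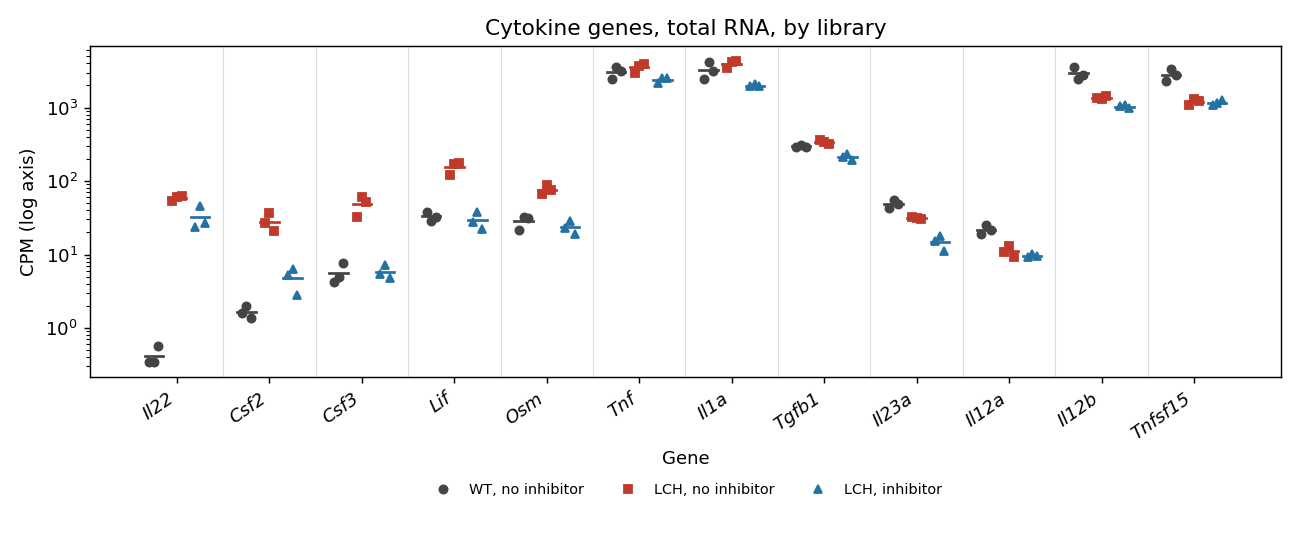
CPM on a log axis of 12 cytokine genes in each library, with circles for WT without inhibitor, squares for LCH without inhibitor, triangles for LCH with inhibitor and bars at the means of 3 libraries. Csf3, Lif and Osm triangles lie among or close to the circles, Il22 and Csf2 triangles lie above them, and Il23a, Il12a, Il12b, Tgfb1 and Tnfsf15 triangles lie below them.

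Chemokine genes gave 2 higher and 2 lower of 19 measured with inhibitor, a share near the 27.0% over all genes. The interval lay within 1 of 0 for 8 of these genes, and the median was 0.02. Without inhibitor 4 were higher and 3 lower, with a median of 0.41. Ccl5, which attracts T cells, was lower by 0.78 (SE 0.17, adjusted p = 0.00745), and Cxcl9, an interferon-induced T cell attractant, was higher by 1.81 (SE 0.42, adjusted p = 0.0107). Cxcl16 was higher by 0.69 (adjusted p = 0.0102), a call lost without WT BD or WT C, and 1 member was lower without WT C, LCH E, LCH G or both pool G libraries. Ccl8 and Ccl20 were under the low-count filter.

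Of 14 JAK-STAT feedback genes 0 were higher and 4 lower, a share near the 27.0% over all genes, with a median of -0.20. Cish, a STAT5-induced brake on cytokine receptors, was at 214, 193 and 181 CPM in WT, 210.2, 204 and 227 CPM in LCH without inhibitor and 126, 120.0 and 131 CPM with it. WT and untreated LCH libraries overlapped and the inhibitor libraries lay below both, -0.64 from WT (SE 0.09, adjusted p = 0.000584) where untreated LCH was 0.13 (adjusted p = 0.297). Jak1 was lower by 0.41 (adjusted p = 0.00177). The calls of Socs6 and Socs5 were lost in 4 and 6 of the 6 fits with a library left out, and that of Socs5 also without both pool G libraries (0.0934), so the list fell to 2 lower members without WT BD, WT C, LCH E or LCH G.

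Gata2 and Hdc, mast cell and basophil genes, were also below WT after inhibition, and untreated LCH did not pass the test (0.11, adjusted p = 0.601, and 0.03, adjusted p = 0.899). Gata2, a transcription factor of progenitors, mast cells and basophils, was at 36.3, 36.5 and 28.1 CPM in WT, 42.5, 33.1 and 33.6 CPM in LCH without inhibitor and 25.4, 19.4 and 18.2 CPM with it. Hdc, the histamine-forming enzyme, was at 86.3, 78.2 and 90.9 CPM, 89.1, 75.002 and 96.1 CPM and 50.1, 44.5 and 61.0 CPM in the same order of groups. For both genes untreated LCH overlapped WT while all inhibitor libraries lay below, with falls from WT of 0.68 (adjusted p = 0.0071) and 0.71 (adjusted p = 0.0032).

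NF-kB genes were called at a share near the 27.0% over all genes, with 1 of 18 higher and 5 lower with inhibitor. The median was -0.13, and without inhibitor 1 was higher and 6 lower. Rela, the p65 subunit, was at 187, 168 and 194 CPM in WT and 122, 136 and 136 CPM in LCH with inhibitor, a fall of 0.48 with no overlap (SE 0.08, adjusted p = 0.00194). The inhibitors Nfkbie and Tnfaip3 (A20) fell by 0.60 and 0.49 (adjusted p = 0.000743 and 0.00709), while Tnip3, an A20 partner, rose by 1.09 (adjusted p = 0.000476). The lower members numbered 3 without WT pool C or LCH pool E. Of 18 TLR4 signalling genes 1 was higher and 2 lower (0 and 2 without pool G), with 0 called without WT pool C and 1 or 2 without another library. Tlr4 itself was -0.26 from WT (interval -0.78 to 0.26).

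Interferon response genes depended on pool G. With all libraries 4 of 28 were higher and 1 lower, under the 27.0% called over all genes, with a median of 0.23, and without both pool G libraries 4 were higher and 7 lower, with a median of 0.04. Oas2, an antiviral enzyme, was at 45.1, 39.2 and 36.8 CPM in WT and 91.8, 98.5 and 220.4 CPM in LCH with inhibitor, 1.76 higher (SE 0.37, adjusted p = 0.00668), and pool G was the highest library. Mx1, of the antiviral GTPase family, was higher by 1.12 (adjusted p = 0.0127, or 0.0608 without WT pool C). Mx1 and Mx2, both among the 4 higher members, are annotated as polymorphic pseudogenes. They lie outside the protein-coding genes behind the 27.0%. The higher members numbered 1 without WT pool C and 2 without WT A, WT BD or LCH G.

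Of 15 maturation genes of dendritic cells 0 were higher and 4 lower with inhibitor, a share near the 27.0% over all genes, with a median of -0.33, and 0 and 5 without, with a median of -0.39. Without pool G 6 were lower, and without WT pool A 2 were higher. Fscn1, the actin bundler of mature dendritic cells, was at 1688, 949 and 1357 CPM in WT, 269.7, 364 and 521 CPM in LCH without inhibitor and 299, 495 and 642 CPM with it, a fall of 1.48 from WT (SE 0.35, adjusted p = 0.0119), with every LCH library below every WT library. Without the low-count filter this call was lost. Cd80, a T cell costimulator, fell by 0.56 (adjusted p = 0.0117).

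Ccr7, the receptor that guides dendritic cells to lymph nodes, was at 693, 359 and 463 CPM in WT, 163, 156 and 235 CPM in LCH without inhibitor and 355, 369 and 481 CPM with it. The inhibitor libraries overlapped WT and lay above all untreated LCH libraries, -0.33 from WT (interval -1.01 to 0.35, adjusted p = 0.46) after -1.45 without inhibitor (adjusted p = 0.0061). The inhibitor effect on Ccr7 was 1.12 (adjusted p = 0.176, or 5.02e-09 with the pool block). Socs2, a STAT5 feedback gene of maturing dendritic cells, likewise went from -1.36 to -0.44 against WT (adjusted p = 0.175). MHC class II genes gave 3 higher and 0 lower of 10, near the 27.0% over all genes. The higher members numbered 0 when WT BD, WT C, any LCH library or both pool G libraries were left out, and 6 without WT A.

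Tbc1d4, an insulin-responsive regulator of vesicle traffic, is a gene the inhibitor raised without closing the gap. It was at 72.6, 63.9 and 63.6 CPM in WT, 18.8, 16.4 and 20.2 CPM in LCH without inhibitor and 29.6, 27.0 and 35.6 CPM with it. The groups were separate, with the inhibitor libraries between, -1.12 from WT (SE 0.15, adjusted p = 0.000456) after -1.85. Cd209a, a C-type lectin of dendritic cells, showed the mirror image at 2.38, 1.90 and 1.85, 15.7, 10.2 and 11.6 and 7.75, 4.10 and 5.20 CPM, and was 1.47 above WT (adjusted p = 0.00193) after 2.61. The inhibitor effect on Cd209a did not pass the test in the main fit, and was -1.15 with the pool block (adjusted p = 2.49e-06).

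Cdh1, the E-cadherin of Langerhans cells, is a lesion gene that lay near WT after inhibition. Its level was 9.08, 10.8 and 12.2 CPM in WT, 41.5, 41.7 and 26.4 CPM in LCH without inhibitor and 11.03, 11.4 and 10.9 CPM with it. The inhibitor libraries lay inside the WT range, 0.05 from WT (interval -0.47 to 0.58, adjusted p = 0.895), after a fall of 1.72 under inhibitor (adjusted p = 0.00753). Of 13 LCH lesion genes measured, 4 were higher and 2 lower than WT with inhibitor (27.0% called over all genes), and Cd207 (langerin) was at 3.13, 0 and 0.925 CPM in WT and 0.094, 0.07 and 0.064 CPM in LCH with inhibitor. The lower members numbered 0 without WT BD, WT C or LCH E and 1 without LCH G. Jag2, a Notch ligand, stayed 2.94 above WT (SE 0.40, adjusted p = 0.000541).

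The largest remaining rises included matrix, surface and enzyme genes. The 15 largest were picked as called genes with a mean of 5 CPM or more and no overlap. Their calls, sizes and separation are therefore a description. Il22, Col4a1, Cpm, Itgad, Klrd1, Cdh17, Plcb4, A4galt, Srgap3, Hic1 and Tjp1 met that level through the LCH libraries. Col4a1, a basement membrane collagen, was at 0.496, 0.288 and 0.925 CPM in WT, 41.8, 33.3 and 49.6 CPM in LCH without inhibitor and 21.8, 22.7 and 32.7 CPM with it. No library overlapped, and the difference from WT was 5.47 with inhibitor (SE 0.38, adjusted p = 1.89e-05) and 6.16 without.

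Itgad, the integrin alpha D chain, was 5.11 above WT (adjusted p = 7.25e-05), and Klrd1, the CD94 receptor of natural killer cells, 4.68 (adjusted p = 0.00012). Cpm, a carboxypeptidase of the cell membrane, was 5.37 above WT (adjusted p = 0.000248), and Cdh17, an intestinal cadherin, 4.57 (adjusted p = 7.7e-05) after 6.04 without inhibitor. Plcb4, a phospholipase, was 4.52 above WT, the glycosyltransferases A4galt and St3gal6 3.76 and 3.26, and the B cell and myeloid receptor Cd72 3.11. Hic1, a transcriptional repressor, Tjp1, a tight junction scaffold, and Srgap3, a GTPase regulator, were 3.11, 3.05 and 3.33 above WT, all called.

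Arg1 and Mmp9 stayed far above WT. Arg1, which breaks down arginine, was at 8.93, 17.9 and 12.8 CPM in WT, 115, 151 and 155 CPM in LCH without inhibitor and 109, 198 and 186 CPM with it. Both LCH groups lay far above WT and overlapped each other, 3.64 above WT with inhibitor (SE 0.29, adjusted p = 4.72e-05). Mmp9, a matrix-degrading protease, was at 25.5, 64.2 and 53.6 CPM in WT, 573, 623 and 853 CPM in LCH without inhibitor and 403, 477 and 703 CPM with it, 3.47 above WT (SE 0.42, adjusted p = 0.000444). Among dendritic cell markers Dpp4 (CD26), Itgae (CD103) and Kmo were 2.60, 2.31 and 2.05 above WT (adjusted p = 0.00119, 0.0013 and 0.000154). Irf4 and Zbtb46, transcription factors of dendritic cells, fell by 1.17 and 0.88 (adjusted p = 0.00347 and 0.00824). In all, 4 of 15 dendritic cell markers were higher and 3 lower (27.0% called over all genes).

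**Figure D4:**
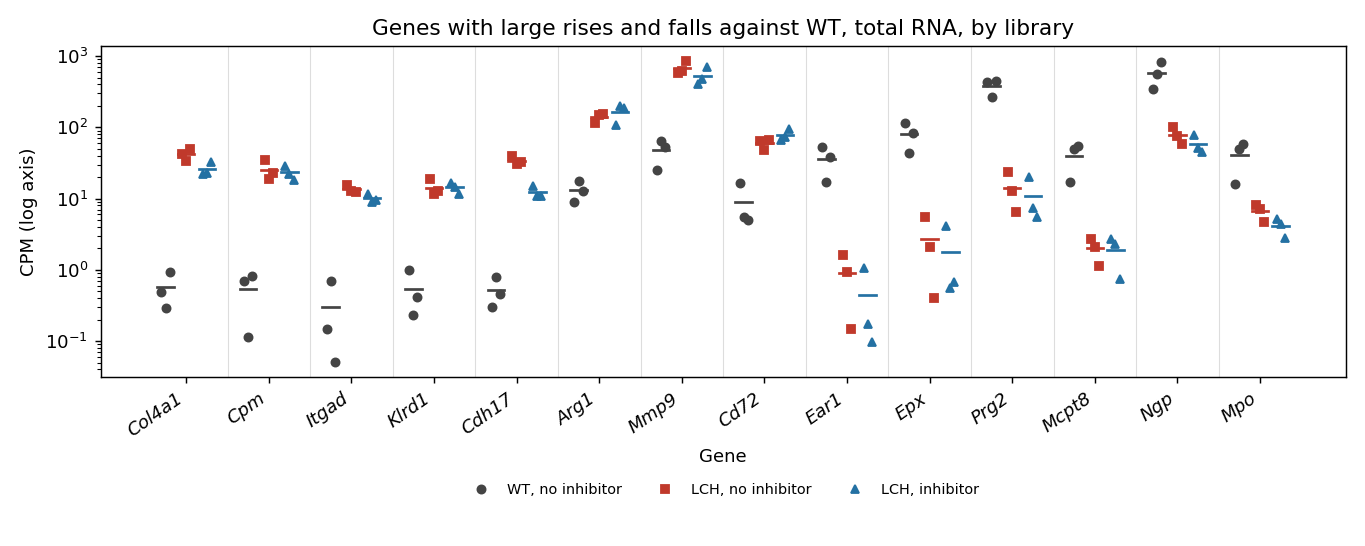
CPM on a log axis of 8 genes with large rises and 6 with large falls against WT in each library, with circles for WT without inhibitor, squares for LCH without inhibitor, triangles for LCH with inhibitor and bars at the means of 3 libraries. Triangles lie near the squares for most of these genes and apart from the circles for all 14.

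Cell cycle genes stayed above WT. Of 16 mitosis genes 12 were higher and 0 lower with inhibitor, against 13.0% higher over all genes, with a median of 1.02, and 13 and 0 without, with a median of 1.02. Kif11, a spindle motor, was at 17.97, 14.2 and 18.2 CPM in WT, 43.5, 40.7 and 30.0 CPM in LCH without inhibitor and 48.6, 38.1 and 33.1 CPM with it. The LCH groups overlapped each other and lay above all WT libraries, 1.25 above WT with inhibitor (SE 0.17, adjusted p = 0.000552). Top2a, the topoisomerase of dividing cells, was higher by 1.26 (adjusted p = 0.00563), and Aurkb, a mitotic kinase, by 1.23 (adjusted p = 0.00424). Leaving out WT C, WT BD, LCH E or LCH F lowered the 12 calls to 4, 5, 5 and 7, and without pool G 14 were called.

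Of 14 DNA replication genes 5 were higher and 1 lower (27.0% called over all genes), with higher counts of 1, 1 and 2 without WT BD, LCH E and LCH F. The cell cycle inhibitor Cdkn2a, a gene of senescence, was at 1.09, 1.21 and 1.28 CPM in WT, 5.12, 7.81 and 5.73 CPM in LCH without inhibitor and 5.66, 9.07 and 5.97 CPM with it. It stayed 2.52 above WT (SE 0.27, adjusted p = 0.000156), with no overlap. Of 17 senescence and survival genes 3 were higher and 0 lower, under the 27.0% over all genes, with 1 higher without WT C or LCH E. Bcl2, a survival gene, went from 1.37 to 0.48 against WT (adjusted p = 0.125).

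Cholesterol genes stayed below WT. Of 23 genes of cholesterol synthesis and uptake 0 were higher and 17 lower with inhibitor, against 14.0% lower over all genes, with a median of -0.63, and 0 and 16 without, with a median of -0.66. Fdft1 (squalene synthase) was at 91.4, 66.2 and 79.6 CPM in WT, 41.1, 34.3 and 31.0 CPM in LCH without inhibitor and 37.5, 33.4 and 29.9 CPM with it. Both LCH groups lay below all WT libraries, a fall of 1.24 with inhibitor (SE 0.18, adjusted p = 0.000737). Without WT C, LCH F and LCH G the lower members numbered 9, 10 and 11, and without both pool G libraries 13.

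Of 17 stress genes 8 were higher and 1 lower with inhibitor, against 13.0% higher and 14.0% lower over all genes, and 8 did not pass the test, with a median of 0.45, and 9 and 1 without, with a median of 0.63. Atf6, a sensor of unfolded proteins, was at 48.5, 46.2 and 42.2 CPM in WT, 101, 85.3 and 84.0 CPM in LCH without inhibitor and 118, 101 and 93.2 CPM with it. All inhibitor libraries lay above all WT libraries, 1.19 higher (SE 0.11, adjusted p = 7.38e-05), and Hspa5 (BiP) was higher by 0.66 (adjusted p = 0.00855). Ppp1r15a (GADD34), which restarts translation after stress, was the lower member at -0.93 (SE 0.08, adjusted p = 5.08e-05).

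Of 21 glycolysis and hypoxia genes 4 were higher and 2 lower with inhibitor, a share near the 27.0% over all genes, and 7 and 1 without. Slc2a1, the glucose transporter GLUT1, was at 80.9, 96.3 and 97.3 CPM in WT, 157, 183 and 164 CPM in LCH without inhibitor and 100.2, 117 and 100.4 CPM with it. The inhibitor libraries lay just above the WT range, 0.21 from WT (interval -0.06 to 0.48, adjusted p = 0.23), after 0.88 without inhibitor. Vegfa, the vessel growth factor, stayed 1.12 above WT (adjusted p = 0.00494). The higher members numbered 2 without WT A or LCH F, while the lower ones numbered 1 without WT BD, WT C or LCH F and 4 without pool G.

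Regulators of AU-rich and unstable mRNAs included Zfp36 (tristetraprolin), at 241, 245 and 273 CPM in WT, 393, 417 and 497 CPM in LCH without inhibitor and 443, 499.9 and 556 CPM with it. Zfp36 stayed 0.98 above WT (SE 0.11, adjusted p = 0.000235), with no overlap. Zc3h12a (regnase-1), an endonuclease for cytokine mRNAs, was near WT without inhibitor (-0.10, adjusted p = 0.468) and -0.54 from WT with it (SE 0.10, adjusted p = 0.00253). Of 23 genes on this list 4 were higher and 2 lower, near the 27.0% over all genes, or 7 and 3 without WT pool A.

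Granulocyte genes were among the largest falls. Of 16 neutrophil markers 0 were higher and 13 lower with inhibitor, against 14.0% lower over all genes, with a median of -2.44, and of 10 eosinophil markers 1 was higher and 7 lower, with a median of -4.08. Of 8 mast cell and basophil markers measured 1 was higher and 7 lower, with a median of -2.82. Ear1, an eosinophil ribonuclease with close paralogs that can share reads, was at 53.6, 17.1 and 37.8 CPM in WT, 1.601, 0.927 and 0.148 CPM in LCH without inhibitor and 1.06, 0.175 and 0.096 CPM with it. Every LCH library lay far below every WT library, at -6.30 on the log2 scale (SE 0.85, adjusted p = 0.000964).

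Prg2, the eosinophil major basic protein, was -5.14 from WT and Epx, the eosinophil peroxidase, -5.46 (adjusted p = 0.000559 and 0.00352). Mcpt8, a basophil protease, was -4.38 from WT (adjusted p = 0.0012), and the neutrophil granule genes Ngp, Camp, Mpo and Ctsg -3.30, -3.26, -3.32 and -3.19, all called. The falls named here from the largest were picked for size and for no overlap between the groups, so size and separation are a description. Ear1, Epx, Mcpt8, Camp, Mpo and Ctsg met the level of 5 CPM through the WT libraries.

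Kit went the other way from the rest of the mast cell list. It was at 18.2, 12.7 and 14.3 CPM in WT, 49.3, 33.9 and 41.6 CPM in LCH without inhibitor and 71.8, 55.5 and 54.2 CPM with it, 2.01 above WT (SE 0.17, adjusted p = 4.94e-05). The inhibitor libraries were the highest of all, and the inhibitor effect was 0.54 (adjusted p = 0.215, or 3.88e-05 with the pool block). The eosinophil receptor Siglecf was higher as well (1.20, adjusted p = 0.023), a call lost without WT BD, WT C or LCH E.

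Summed neutrophil markers were at 2094 to 4461 CPM in WT and 600.2 to 958 CPM in LCH with inhibitor, and summed eosinophil markers at 418 to 757 CPM and 41.7 to 104 CPM. Summed mast cell and basophil markers were at 213 to 349 CPM and 133 to 166 CPM, and macrophage and monocyte markers at 10275 to 18941 CPM and 7481 to 10838 CPM. Of 16 macrophage and monocyte markers 0 were higher and 5 lower, a share near the 27.0% called over all genes. The lower members numbered 2 without WT BD, WT C, LCH E or LCH F. Mcpt4 and Cma1 had 0 counts in every WT library without inhibitor, and Tpsb2 had 0, 5 and 10. Erythroid markers summed to at most 1.84 CPM in WT without inhibitor. Lymphocyte and plasmacytoid markers summed to 93.9 to 132 CPM in WT and 110.2 to 133 CPM in LCH with inhibitor, and stromal and osteoclast markers to 208 to 326 CPM and 194 to 263 CPM. In these 3 lists 0 of 8, 0 of 1 and 1 of 7 were higher and 1, 0 and 0 lower, in the order lymphocyte, erythroid, stromal. These shares lay under the 27.0% called over all genes. The part of granulocyte content in the other differences from WT was not tested.

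**Figure D5:**
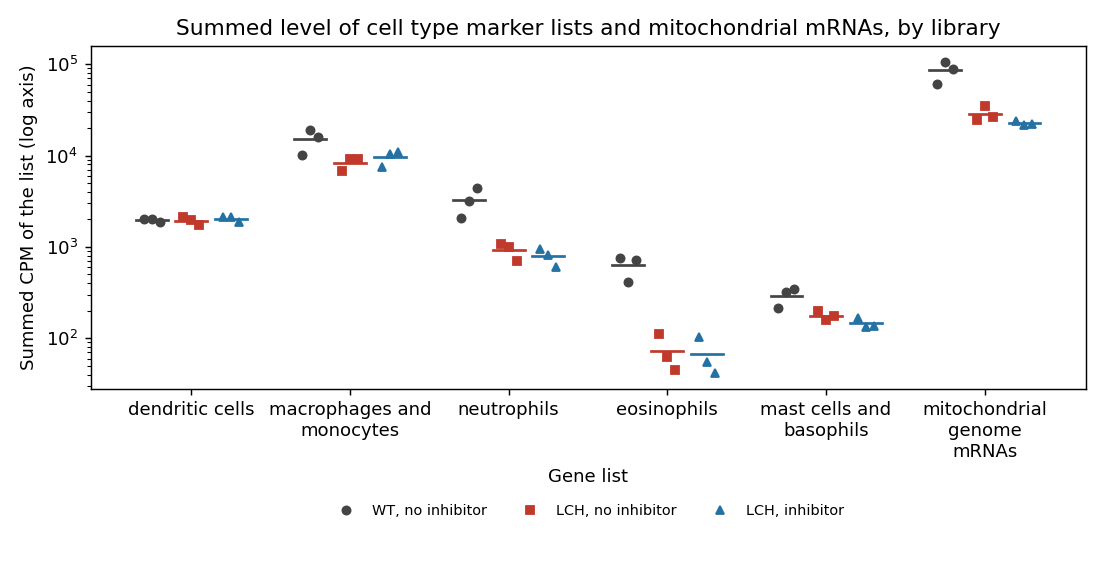
Summed CPM on a log axis of 5 cell type marker lists and the mitochondrial genome mRNAs in each library, with circles for WT without inhibitor, squares for LCH without inhibitor, triangles for LCH with inhibitor and bars at the means of 3 libraries. Dendritic cell sums are level across groups, and neutrophil, eosinophil and mitochondrial sums of both LCH groups lie below those of all WT libraries.

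The mRNAs of the mitochondrial genome were lower in LCH cells with and without inhibitor. All 13 passed the test with inhibitor (27.0% called over all genes), with a median of -1.94. All 13 also passed without it (31.3% called over all genes), with a median of -1.63. The subunit mt-Nd4 of respiratory complex I was at 4470.4, 7978 and 6603 CPM in WT, 1698, 2406 and 1828 CPM in LCH without inhibitor and 1616, 1439 and 1618 CPM with it. Neither LCH group overlapped WT, and the fall with inhibitor was 2.03 (SE 0.26, adjusted p = 0.000431). The part of this share of the libraries in the scaling of other genes was not tested.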

How the data were processed

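Total RNA sequencing of LPS-stimulated BMDC was analysed. The authors deposited estimated counts per gene, rounded to whole numbers, made with Salmon and DESeq2 on mm9 per the submitters' processing notes, with versions not given in the sources used here. The authors also deposited rlog values, a regularised log2 scale, which served as an alternative. All 12 total RNA libraries of 4 groups, 3 per group, were fitted together with edgeR 4.0.16 (R 4.3.3): TMM scaling, the filterByExpr filter with a minimum count of 10, and the robust quasi-likelihood test. Benjamini-Hochberg adjustment ran over all 13375 genes tested, of 54309 gene models in the file, and counts were made over the 12110 protein-coding genes tested, of 21741 protein-coding models. A gene was called at an adjusted p under 0.05. CPM values use TMM-scaled library sizes, and intervals are at 95%. The scripts were tested on simulated data.

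WT and LCH pools are different cultures, so the main comparison cannot be paired. Within LCH, libraries of the same pool with and without inhibitor deviated together (r = 0.524, 0.346 and 0.735 for pools E, F and G), although inhibitor pool F correlated slightly more with untreated pool E (0.37). In WT the values were 0.421, 0.372 and 0.114 for pools A, BD and C. Pool letters, taken from the column names, were accepted as pairing for the inhibitor effect in both genotypes, and the block in WT was added after seeing the data.

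The members and gene lists were chosen with earlier results of these data known. There were 30 lists of 467 genes, 451 of them above the filter. Named genes are Tnf, Braf, the 15 largest rises and 15 largest falls among called genes at a mean of 5 CPM or more with no overlap, up to 4 members per list with the smallest p, and the 10 largest falls and 5 largest rises under inhibitor. Other genes with values were chosen after their values were seen, among them Cdh1, Gata2, Hdc, Tgfb1, Il12a, Il18, Osm, Il1a, Ier3, Egr3, Ccr7, Socs2, Slc2a1, Zbtb46, Irf4, Hspa5, Bcl2, Kit, Tlr4, Cd207 and Siglecf. Alternatives were other scaling, no filter, a fit of the compared groups alone, each library left out, DESeq2 1.42.0 and limma 3.58.1 on rlog values. Further ones were voom with pool as a random block, adjustment over protein-coding genes alone and a test for a log2 fold change beyond 1. Leaving out both pool G libraries was added after seeing the data. Polysome RNA was not used here. Some items are not reported here.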

Additional observations from a re-analysis of the deposited data

How the results depend on the processing

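For LCH with inhibitor against WT, the 3267 calls became 3315 with DESeq2 size factors, 2858 without the low-count filter, 2510 with the compared groups alone, 3188 with DESeq2, 2219 on rlog values, 3242 with pool as a random replicate block and 3014 without pool G, which was added after seeing the data. Leaving out 1 library gave 1705 to 3149 calls, with fewer samples in the fit, and 152 genes passed a test for a log2 fold change beyond 1, a stricter criterion by construction. For LCH without inhibitor, leaving out 1 library gave 2272 to 3600 calls. For the inhibitor effect, the 98 calls became 328 without the filter, 321 with DESeq2, 33 without pool G, 2483 with pools as a replicate block (1188 higher, 1295 lower), and 20 to 71 with 1 library left out; apart from the sample numbers, the cause was not tested. The 75 calls of the inhibitor in WT became 2496 with pools as a replicate block. The count of genes within 1 of WT ranged from 7492 to 8046.

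Single genes changed sign only near 0. Against WT, Csf3 was -0.12 without WT pool A, -0.03 without WT pool BD and -0.15 without LCH pool F (range -0.15 to 0.33 with 1 library left out), and Cdh1 was -0.060 without WT pool A (range -0.060 to 0.15). The inhibitor effect on Braf was -0.054 without untreated pool G and -0.047 without inhibitor pool E (range -0.054 to 0.20). Over 186 named genes, the alternatives against WT other than leaving out pool G kept direction and side of the threshold 2222 times. They lost the call 354 times, gained it 17 times and changed sign 4 times. Those counts include the test for a log2 fold change beyond 1, a stricter criterion by construction, and adjustment over protein-coding genes alone. With 3 libraries per group, the difference of Tnf from WT (-0.34, SE 0.19) could not be resolved. Some smaller differences with a smaller SE were called, such as Nras (-0.30, SE 0.07). That call was lost without WT pool C, without the low-count filter and on rlog values.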
